A study of Drosophila melanogaster with 3 samples.

Results

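Insensitive (Insv) is a nuclear corepressor of Drosophila melanogaster that contacts DNA through its BEN domain and is known for its part in Notch signalling during nervous system development. Its binding was measured by chromatin immunoprecipitation followed by sequencing (ChIP-seq) with an antibody to green fluorescent protein (GFP), in male and female whole embryos collected at 0 to 24 h from 1 transgenic line that carries Insv fused to GFP at its C-terminal end. There are 3 biological replicates and 1 group, and every comparison here is between kinds of genomic region. Each sample pools whole embryos over that span of ages, so stages and tissues are mixed, the tagged protein comes from a transgene, and binding data hold no markers by which a tissue could be checked.

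The peaks described here lie between genes and away from promoters. The authors' list of peaks that passed their test of reproducibility across replicates (irreproducible discovery rate, IDR) held 4753 peaks on the dm6 genome build, and 449 of them, or 9.45%, had a summit more than 500 bp from every annotated transcription start site (TSS) and outside every gene body. Of the other peaks, 3119 had their summit within 500 bp of a TSS and are called promoter peaks, 1026 lay in an intron and 159 in an exon. When the 4753 strongest regions of each replicate were sorted in the same way, the intergenic share was 8.63% in replicate 1, 9.51% in replicate 2 and 10.1% in replicate 3, a mean of 9.41% ± 0.741 (SD, n = 3). Regions were ranked by the authors' signal score within each list, with rank 1 the strongest, because the scale of the score is not given. The depth is unknown, since read numbers were not among the sources used here, and the error of each share was taken from the 3 replicate lists.

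As background, DNA between genes in a fly embryo holds enhancers, which drive genes in particular cells, and insulators, which keep neighbouring regulatory domains apart. Insulators are bound by proteins such as CTCF, Su(Hw), BEAF-32 and the Elba complex, which itself holds BEN proteins. Insv and Elba recognise related short palindromic or near-palindromic sequences that begin with CCAAT.

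Each summit was given a window of 101 bases, 50 to either side, and both strands of it were searched for motifs. An Insv site was either the palindrome CCAATTGG or a degenerate form of 11 bases, and the Elba motif was CCAATAAG. The degenerate form allows more than 1 letter at some positions, so not all of its versions contain the palindrome. Its versions TCCAATAAGAA, which contains the Elba motif, and TCCAATCAGAA each lay at 3 intergenic summits. An Insv site lay at 34 of the 449 summits, 9 with the palindrome alone, 17 with the degenerate form alone and 8 with both, and these forms overlap each other. The degenerate form occurred most often as TCCAATTGGAA, at 7 summits, followed by TCCAATTAGAA and TCTAATTGGAA at 5 each, and among the 2683 low-ranked intergenic regions defined with the comparisons these letters lay at 1, 1 and 0 summits. The windows of 9 of the strongest gaps with an Insv or Elba site are shown, because they show both kinds of BEN-type site in strong intergenic peaks. Of peaks with the Elba motif, 1 of 10 was among the strongest 10% of the list, against 9.79% of peaks without it. They are from the dm6 sequence, plus strand, with the Insv or Elba letters in capitals.
Rank 8, Sgt1 to tex, chr3R:8306426-8306526: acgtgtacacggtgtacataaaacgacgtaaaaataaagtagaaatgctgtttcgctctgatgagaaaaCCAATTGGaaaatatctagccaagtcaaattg
Rank 34, CG16952 to tay, chrX:15875683-15875783: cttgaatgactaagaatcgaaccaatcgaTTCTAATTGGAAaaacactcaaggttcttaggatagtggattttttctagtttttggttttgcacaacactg
Rank 64, CR45098 to caps, chr3L:13228043-13228143: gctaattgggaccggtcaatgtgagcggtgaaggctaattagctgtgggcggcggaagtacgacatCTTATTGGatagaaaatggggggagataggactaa
Rank 155, Teh1 to CG46467, chr3R:9872366-9872466: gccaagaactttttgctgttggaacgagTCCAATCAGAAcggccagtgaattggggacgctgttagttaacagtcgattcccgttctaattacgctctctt
Rank 263, CR45539 to fend, chrX:9121605-9121705: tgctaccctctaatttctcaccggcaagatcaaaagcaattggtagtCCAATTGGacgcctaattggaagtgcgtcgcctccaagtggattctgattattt
Rank 313, cherub to CR31386, chr3R:11261292-11261392: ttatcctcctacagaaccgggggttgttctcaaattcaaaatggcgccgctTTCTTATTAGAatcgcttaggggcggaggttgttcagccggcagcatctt
Rank 363, pic to CR46530, chr3R:13056703-13056803: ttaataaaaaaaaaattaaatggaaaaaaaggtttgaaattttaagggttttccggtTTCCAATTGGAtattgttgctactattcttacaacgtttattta
Rank 374, CG15262 to nht, chr2L:15306948-15307048: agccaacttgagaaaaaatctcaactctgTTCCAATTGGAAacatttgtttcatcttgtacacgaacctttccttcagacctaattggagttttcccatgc
Rank 391, c11.1 to lz, chrX:9284094-9284194: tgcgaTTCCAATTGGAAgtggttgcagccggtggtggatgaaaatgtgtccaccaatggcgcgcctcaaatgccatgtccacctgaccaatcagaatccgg

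The site sat at different offsets from the summit in these windows, and the letters around it differed from gap to gap. The window between c11.1 and lz also held CCAATCAG, an 8-base relative of the Elba motif that had been listed in an earlier analysis of these data, at its other end. The window of caps, which encodes a cell-surface protein with leucine-rich repeats, held the Elba motif but no Insv site.

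A CTCF motif, with CTCF the fly counterpart of the vertebrate insulator protein, lay at 29 of the 449 summits. It was searched as AGATGGCGC, AGGTGGCGC, AGAGGGCGC and AGGGGGCGC, which lay at 15, 10, 5 and 0 intergenic summits and at 9, 1, 1 and 2 of the 2683 low-ranked intergenic regions. AGATGGCGC contains GCCAT on its other strand, which is the Pho motif, so the searches overlap. The windows of 5 of the strongest such gaps are shown, with the CTCF letters in capitals, because this motif set the intergenic peaks apart from promoter and intron peaks. They were chosen after the comparison of motifs was seen.
Rank 617, jp to CR44149, chr2L:9567450-9567550: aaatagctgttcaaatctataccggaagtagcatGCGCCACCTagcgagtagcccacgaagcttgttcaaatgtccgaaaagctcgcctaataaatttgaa
Rank 1035, Sox21a to Sox21b, chr3L:14111595-14111695: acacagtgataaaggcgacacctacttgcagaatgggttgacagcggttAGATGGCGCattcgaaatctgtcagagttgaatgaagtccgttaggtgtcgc
Rank 1070, Or67d to CR46003, chr3L:10281946-10282046: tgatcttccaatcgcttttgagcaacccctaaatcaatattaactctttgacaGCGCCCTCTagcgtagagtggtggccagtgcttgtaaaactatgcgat
Rank 1622, cherub to CR31386, chr3R:11269172-11269272: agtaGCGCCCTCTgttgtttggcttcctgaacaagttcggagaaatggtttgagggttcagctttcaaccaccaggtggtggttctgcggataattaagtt
Rank 1632, Sid to snu, chr3R:28672329-28672429: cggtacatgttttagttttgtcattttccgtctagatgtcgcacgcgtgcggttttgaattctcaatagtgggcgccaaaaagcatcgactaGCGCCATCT

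None of the 29 windows with a CTCF motif held an Insv site, which lay at 7.57% of all 449 summits. A count of 0 of 29 allows a share of up to 10.3% in counting error alone, so it does not show that the sites avoid each other. Su(Hw), a zinc finger insulator protein, was searched as TGCATACTT and lay at 9 summits. The windows of 2 of the strongest such gaps, chosen in the same way, carry the letters in capitals.
Rank 405, CG31495 to CG14362, chr3R:13842682-13842782: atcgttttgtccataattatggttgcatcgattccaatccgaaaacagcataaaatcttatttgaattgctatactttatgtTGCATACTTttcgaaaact
Rank 518, CR44199 to Pk34A, chr2L:13158028-13158128: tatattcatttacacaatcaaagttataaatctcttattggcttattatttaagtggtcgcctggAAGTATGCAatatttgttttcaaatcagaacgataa

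The second of these is the summit between CR44199 and Pk34A that also carried the Elba motif. It was the 1 peak of 449 with both a BEN-type motif (Insv, Elba or CCAATCAG) and a CTCF or Su(Hw) motif. A BEN-type motif lay at 48 peaks (10.7%), a CTCF or Su(Hw) motif at 38 (8.46%), and 364 (81.1%) had neither kind.

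Intergenic peaks spread over the whole range of signal strength. They held ranks 8 to 4753 with a median of 2267, against 2365 for promoter and 2472 for intron peaks, and 4 of them stood among the 20 strongest peaks and 13 among the first 100. Of the 449 peaks, 44 (9.8%) were among the strongest 10% of the list, compared with 9.71% of promoter peaks (odds ratio 1.01, 95% interval 0.724 to 1.41, adjusted exact p = 0.932) and 11% of intron peaks (odds ratio 0.878, 95% interval 0.608 to 1.27, adjusted exact p = 0.637). In the replicate lists the intergenic share was 9.45% ± 0.42 in the strongest 10% of regions and 8.84% ± 0.759 in the weakest 10% (SD, n = 3). An exact p is from a two-sided Fisher's exact test on counts of summits, and adjustment for the single shares covers 11 comparisons.

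The 5 strongest intergenic peaks each kept a high place in every replicate. Their choice favoured this, because the IDR list was selected for reproducibility across the same replicates. The percentiles are therefore a description and not separate evidence. The strongest, rank 8 on 3R from 8306070 to 8307208, lay between Sgt1, a co-chaperone, and tex, a subunit of the THO complex of mRNA export, 1202 bp upstream of the Sgt1 TSS. Its percentile of signal score among all regions of a replicate was 99.95, 99.98 and 99.98 in replicates 1, 2 and 3. The peak of rank 16, on 3R from 6870433 to 6871395, lay 4722 bp past the 3′ end of ftz, a pair-rule homeobox gene, and toward Antp, a Hox gene, with percentiles of 99.96, 99.94 and 99.94. The peak of rank 18, on 3R from 6854054 to 6855098, lay 4529 bp upstream of Scr, a Hox gene of the anterior thorax and labial segment, with percentiles of 99.95, 99.94 and 99.92. These 2 peaks flank ftz on either side within the Antennapedia complex.

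The peak of rank 20 was 2324 bp long, the longest of the 449, and lay on 3R from 14655060 to 14657383 between the diverging genes l(3)L1231 and CG3505. Its percentiles were 99.91, 99.92 and 99.94, and its window held CCAATCAG. The peak of rank 34, on X from 15874973 to 15876417, was longer than the gap of 760 bp that held its summit, between the converging genes CG16952 and tay, and stood at 99.79, 99.9 and 99.89. Across the strongest 20 gaps, taken with 1 peak each, no replicate put a peak below percentile 99.12, which the choice of the list likewise favoured.

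The same 20 gaps held developmental and housekeeping neighbours side by side. Developmental neighbours were E(spl)m3-HLH and E(spl)m4-BFM (rank 85), Notch target genes of the Enhancer of split complex. Tom and Brd (rank 104) are Bearded family genes that act in Notch signalling, and caps (rank 64) lay 599 bp from its peak. The peak of croc (rank 94), a forkhead gene of head development, lay 7451 bp from it and 961 bp from Neu2. The peak of rank 128 lay 51076 bp from vvl, a POU homeobox gene, and 65982 bp from Prat2, with a noncoding RNA gene nearer. The other coding gene beside the caps peak was snky, 51312 bp away. Tollo (rank 79), a Toll-like receptor gene, lay 25563 bp from its peak, and the nearest TSS, that of Best4, was 30563 bp away. Other neighbours were CkIalpha, a casein kinase, and Tis11, an RNA-binding protein of mRNA decay (rank 75), and the tetraspanins Tsp42Ec and Tsp42Ed (rank 76). They also included Set2, a histone methyltransferase, with Neto, an auxiliary subunit of glutamate receptors (rank 89). The peak of rank 133 lay 7132 bp from CG14506 and 10942 bp from Cnx99A, a calnexin. The rest were CG15550 and CG15548 (rank 54), Jhbp1 and CG14662 (rank 132), Teh1, which encodes a sodium channel subunit, with CG46467 (rank 155), CG16898 and CG46443 as the nearest coding genes of a gap between noncoding RNAs (rank 196), and AP-1gamma, a clathrin adaptor subunit, with fend (rank 197).

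**Figure D1:**
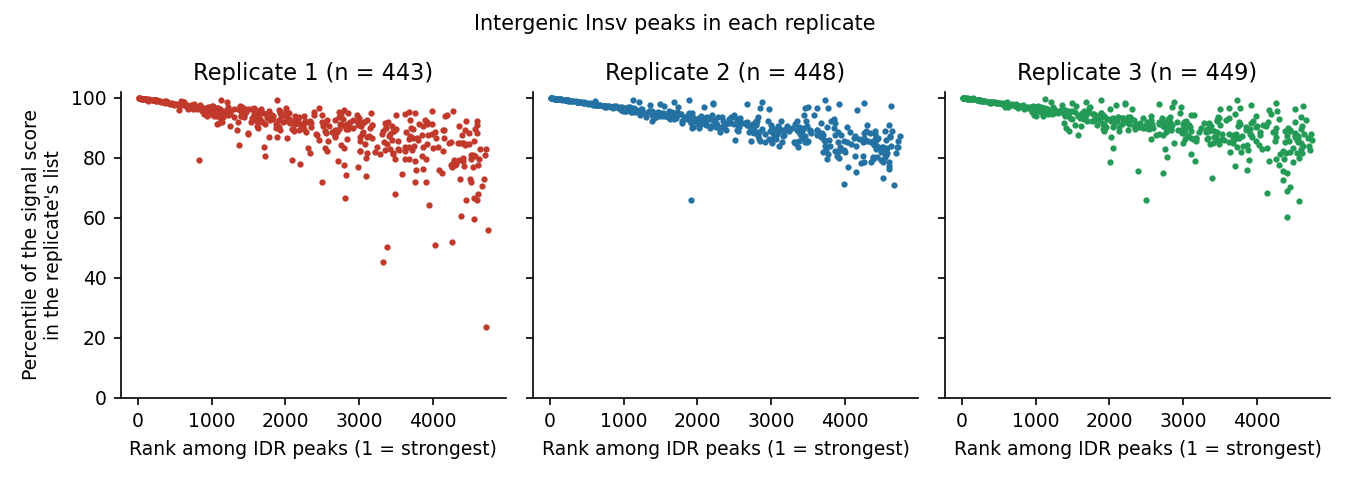
Percentile of the authors' signal score in the list of each replicate (y axis) against the rank of the peak in the IDR list (x axis), 1 point for each intergenic peak found in that list. Points lie near 100 for the strongest peaks, and the low end of the spread reaches 23.49 in replicate 1, 66.08 in replicate 2 and 60.45 in replicate 3.

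Replicate 1 differed from the others in how often it held the intergenic peaks. A peak was counted as held when its summit lay in one of the 4753 strongest regions of a replicate. All 3 replicates held 302 of the 449 intergenic peaks (67.3%), against 68.9% of promoter peaks (odds ratio 0.926, 95% interval 0.75 to 1.14, adjusted exact p = 0.637), while 105 were held by 2 replicates, 37 by 1 and 5 by none. Replicate 1 alone held 78.4% of intergenic and 85.5% of promoter peaks (odds ratio 0.615, 95% interval 0.481 to 0.786, exact p = 0.000589 adjusted over the 3 replicates). Replicate 2 held 88.4% and 90.4% (odds ratio 0.809, adjusted exact p = 0.203), and replicate 3 held 89.98% and 84.5% (odds ratio 1.65, 95% interval 1.19 to 2.28, adjusted exact p = 0.00261). Intergenic peaks were thus held less often than promoter peaks by replicate 1 and more often by replicate 3. These 3 tests were added after the data were seen. Of the relaxed lists, replicate 1 had the fewest regions with a q-value below 0.05, 8416 of 30000, beside 13955 and 12195 in replicates 2 and 3, and the part of this difference in the result was not tested.

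To ask what sets these peaks apart from weak signal in the same kind of place, they were compared with low-ranked intergenic regions. Those were the 2683 regions of the weaker 50% of the pooled relaxed list that overlapped no IDR peak and whose summits met the same intergenic rule. Insv sites lay at 7.57% of intergenic peaks and at 0.485% of low-ranked regions (34 of 449 against 13 of 2683, odds ratio 16.8, 95% interval 8.81 to 32.2, adjusted exact p = 1.74e-18). In the replicate lists the shares were 8.36% ± 0.362 and 0.375% ± 0.0754 (SD, n = 3), a difference larger than the spread between replicates. Window GC content differed too, with a median of 40.59% in intergenic peaks and 43.56% in low-ranked regions, and its part in the motif comparisons was not tested.

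The share of promoter peaks with an Insv site was 5.13% (odds ratio for intergenic peaks 1.52, 95% interval 1.03 to 2.22), which did not pass after adjustment (adjusted exact p = 0.121). The replicate lists taken alone did pass, with 8.78%, 8.19% and 8.12% of intergenic against 4.93%, 4.98% and 5.34% of promoter regions in replicates 1, 2 and 3 (adjusted exact p = 0.00749, 0.0198 and 0.0427). It passed as well with motifs sought within 25 bp, with 1 summit for each group of overlapping peaks and with a TSS limit of 250 bp. Intron peaks had an Insv site at 9.55% of summits (odds ratio 0.776, 95% interval 0.516 to 1.17, adjusted exact p = 0.37).

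Insv sites were concentrated among the strongest intergenic peaks. Of the 34 peaks with a site, 11 (32.4%) were among the strongest 10% of the IDR list, against 33 of 415 without one (7.95%, odds ratio 5.54, 95% interval 2.48 to 12.3, adjusted exact p = 0.000455). In the replicate lists the shares were 28.5% ± 1.98 and 8.42% ± 0.816 (SD, n = 3). Ordered by rank and divided into 5 equal groups, intergenic peaks had an Insv site in 21.1%, 6.67%, 4.44%, 3.33% and 2.25% from the strongest group to the weakest. In the replicate lists the strongest group had one in 22.7% ± 1.71 and the weakest in 2.94% ± 1.07 (SD, n = 3).

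None of the 29 peaks with a CTCF motif was among the strongest 10% of the list, and the best rank was 617. A count of 0 of 29 allows a share of up to 10.3% in counting error alone, and the share of the peaks without the motif was 10.5%. The difference was not tested. Over the 5 groups by rank the CTCF share was 3.33%, 5.56%, 8.89%, 5.56% and 8.99%, and the replicate lists gave 2.24% ± 0.182 in the strongest group and 5.69% ± 3.42 in the weakest (SD, n = 3). The median percentile of signal score was 92.19, 90.14 and 91.12 in replicates 1, 2 and 3, against 97.01, 97.09 and 96.85 for peaks with an Insv site. All 3 replicates held 21 of the 29 peaks with a CTCF motif and 30 of the 34 with an Insv site.

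**Figure D2:**
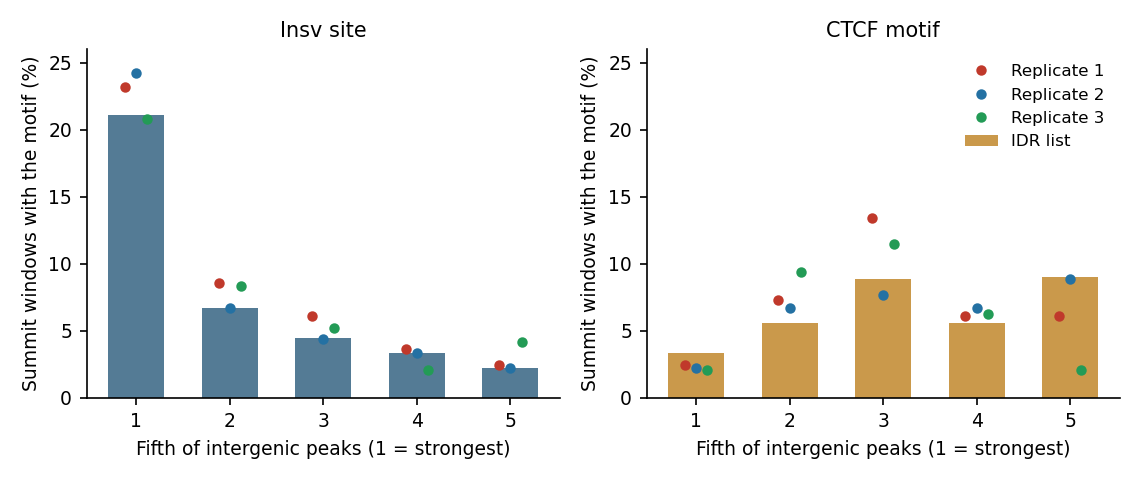
Share of summit windows with an Insv site (left) or a CTCF motif (right) in 5 equal groups of the intergenic peaks, ordered from strongest to weakest. Bars show the IDR list and points the list of each replicate; the Insv bar falls from 21.1% to 2.25%, while the CTCF bars lie between 3.33% and 8.99%.

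Seen across 22 motifs, CTCF, Su(Hw) and Zelda motifs were more frequent in intergenic than in promoter peaks, and M1BP, DREF, BEAF-32 and TATA motifs were less frequent. Against promoter peaks, 3 motifs were higher (13.6% of those tested) and 4 lower (18.2%) at an adjusted p under 0.05. CTCF lay at 6.46% of intergenic and 1.38% of promoter summits (29 of 449 against 43 of 3119, odds ratio 4.94, 95% interval 3.05 to 8.0, adjusted exact p = 4.61e-08), and the replicate lists gave 6.58% ± 0.435 and 1.34% ± 0.0573 (SD, n = 3). Su(Hw) lay at 2.0% and 0.289% (odds ratio 7.07, 95% interval 2.79 to 17.9, adjusted exact p = 0.000548), which rests on 9 peaks in each group. Zelda, searched as CAGGTAG and known as the factor that opens chromatin in the early embryo, also lay at 9 intergenic peaks, 2.0% against 0.449% (odds ratio 4.54, 95% interval 1.95 to 10.5, adjusted exact p = 0.00429). All 3 passed in each replicate list.

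The 4 motifs that were lower are those of proteins that bind at housekeeping promoters and of the TATA box. M1BP, searched as GGTCACAC, lay at 1 intergenic summit (0.223%) and at 4.1% of promoter summits (odds ratio 0.0522, adjusted exact p = 1.04e-05). DREF, searched as TATCGATA, lay at 0.668% and 4.49% (odds ratio 0.143, adjusted exact p = 6.18e-05). BEAF-32, searched as CGATA and so contained in the DREF motif, lay at 14.3% and 23.1% (odds ratio 0.553, adjusted exact p = 7.7e-05). The TATA box, searched as TATAAAA, lay at 3.34% and 6.8% (odds ratio 0.474, adjusted exact p = 0.0114), and this call was lost in 1 of the 3 replicate lists and under 6 of 11 alternatives. The Initiator, another core promoter motif, searched as TCAGTT or TCAGTC and likewise as TCATTT or TCATTC, did not pass, at 20.5% and 22% (odds ratio 0.912, 95% interval 0.715 to 1.16, adjusted exact p = 0.736). Promoter peaks were chosen for lying near a TSS, where such motifs are found, so this direction is tied to how the groups were made.

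Against low-ranked intergenic regions, 8 motifs were higher (36.4% of the 22). They were the Insv palindrome, the degenerate Insv form, Elba, CCAATCAG, CTCF, Su(Hw), Zelda and BEAF-32. The Insv, Elba and CCAATCAG searches share matches and are not separate results. Of intergenic windows, 3 of 10 with Elba and 7 of 14 with CCAATCAG also held an Insv site. CTCF lay at 6.46% and 0.485% (odds ratio 14.2, 95% interval 7.31 to 27.5, adjusted exact p = 7.04e-15). The odds ratio was 15 for the Insv palindrome (95% interval 6.2 to 36.5). For the degenerate Insv form, at 5.57% and 0.261%, it was 22.5 (95% interval 9.69 to 52.4). In the replicate lists the odds ratio was 13.8 ± 5.8 for CTCF, 21.8 ± 7.1 for the palindrome and 37.6 ± 11.1 for the degenerate form (SD, n = 3). Elba lay at 2.23% and 0.335% (odds ratio 6.77, adjusted exact p = 0.000401), and CCAATCAG at 3.12% and 0.41% (odds ratio 7.82, adjusted exact p = 6.89e-06). CCAATCAG had been listed in an earlier analysis of these same data, so its p-value is not independent evidence. Zelda passed in 1 of the 3 replicate lists, and BEAF-32, at 14.3% against 9.8% (odds ratio 1.53, adjusted exact p = 0.016), in none. The 4 control motifs, palindromes with the same 8 letters in another order, lay at 0 to 2 intergenic summits each and passed in no comparison.

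Intron peaks were added as another group after the data were seen. CTCF was the 1 motif of 22 (4.55%) that was higher in intergenic peaks, at 6.46% against 2.14% of intron peaks (odds ratio 3.15, 95% interval 1.79 to 5.55, adjusted exact p = 0.00163), and it passed in each replicate list. It did not pass among the stronger 50% of the IDR peaks, where the odds ratio was 2.07 (adjusted exact p = 0.916). For Su(Hw) the shares were 2.0% and 0.487% (odds ratio 4.18, adjusted exact p = 0.164), with 9 and 5 peaks.

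**Figure D3:**
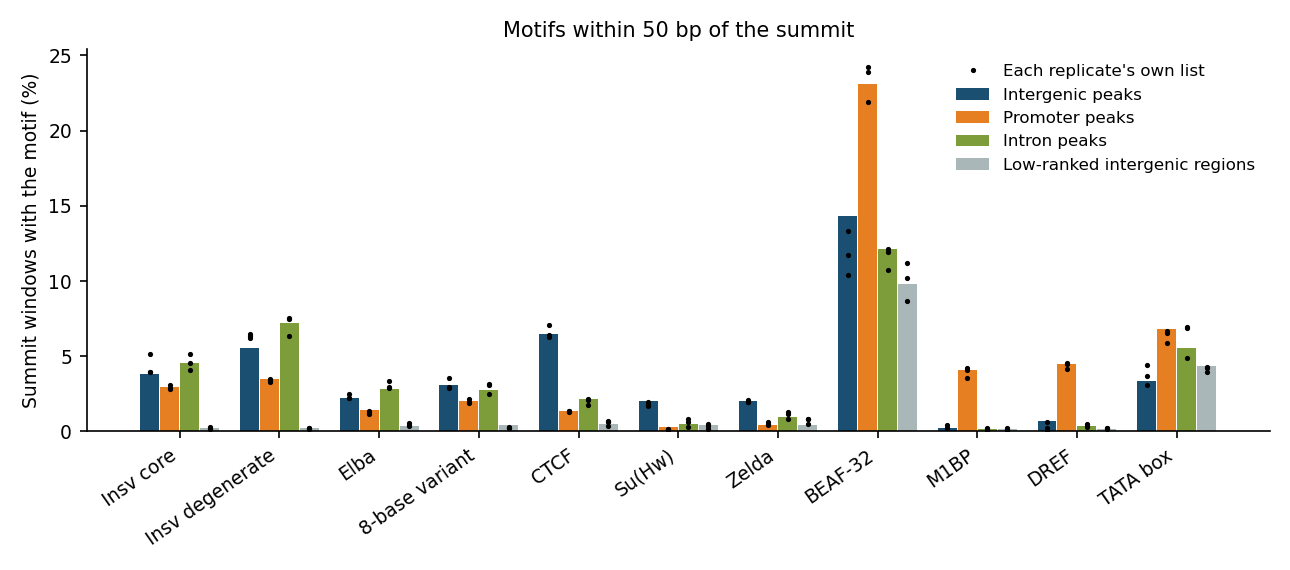
Share of summit windows (y axis) with each of 11 motifs in intergenic, promoter and intron peaks and in low-ranked intergenic regions; bars show the IDR or pooled list and points the list of each replicate, and the label 8-base variant stands for CCAATCAG. CTCF stands at 6.46% of intergenic peaks, above the 1.38% of promoter and 2.14% of intron peaks.

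A search of all 8-base sequences, which does not depend on the choice of motifs, returned letters of the same motifs. CCAATCAG had been listed from these data before, so its return here is not independent evidence. Of 10374 sequences found in at least 10 windows, 37 (0.357%) were more frequent in intergenic peaks than in low-ranked intergenic regions at an adjusted p under 0.05, and 16 of the 37 passed in all 3 replicate lists. In at least 50% of their windows, 9 of the 37 overlapped an Insv, Elba or CCAATCAG match by 6 bases or more, 7 overlapped a CTCF match and 1 a Su(Hw) match. Another 8 held CCAAT or ATTGG without meeting that rule. The first of these, AATTGGAA, lay at 33 summits, 7.35% against 1.12% (odds ratio 7.02, adjusted exact p = 6.91e-09), and 14 of the 33 overlapped one of the BEN-type motifs.

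The remaining 12 of the 37 met neither rule. GACACCTA lay at 9 intergenic summits and at 1 of the 2683 low-ranked ones (2.0% against 0.0373%, odds ratio 54.9, adjusted exact p = 0.000216). It passed in replicate 2 and was in too few windows to be tested in replicates 1 and 3. AGATGTCG lay at 10 summits (2.23% against 0.261%, odds ratio 8.71, adjusted exact p = 0.01) and passed in all 3. Of these windows, 2 with GACACCTA and 2 with AGATGTCG also held a CTCF motif elsewhere, and none held an Insv site. Both sequences resemble the CTCF forms searched. AGATGTCG differs by 1 base from the start of AGATGGCGC. The other strand of GACACCTA holds AGGTGTC, which differs by 1 base from the start of AGGTGGCGC. Whether they are weaker CTCF sites was not tested. Among all 449 peaks the shares were 6.46% for CTCF and 7.57% for Insv sites. ACTGCTTG, at 10 summits (odds ratio 8.71, adjusted exact p = 0.01), passed in 1 replicate list.

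Insv and CTCF sites were most frequent next to the summit. In 50 bp bins, an Insv site lay in the bins on either side of the summit in 3.79% and 4.68% of intergenic peaks, and in at most 1.34% in any other bin within 500 bp. A CTCF motif lay in the same 2 central bins in 4.45% and 2.45%, and in at most 2.23% in any other bin, so the second central bin was close to its surroundings. For promoter peaks the central Insv bins held 2.82% and 2.69%.

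**Figure D4:**
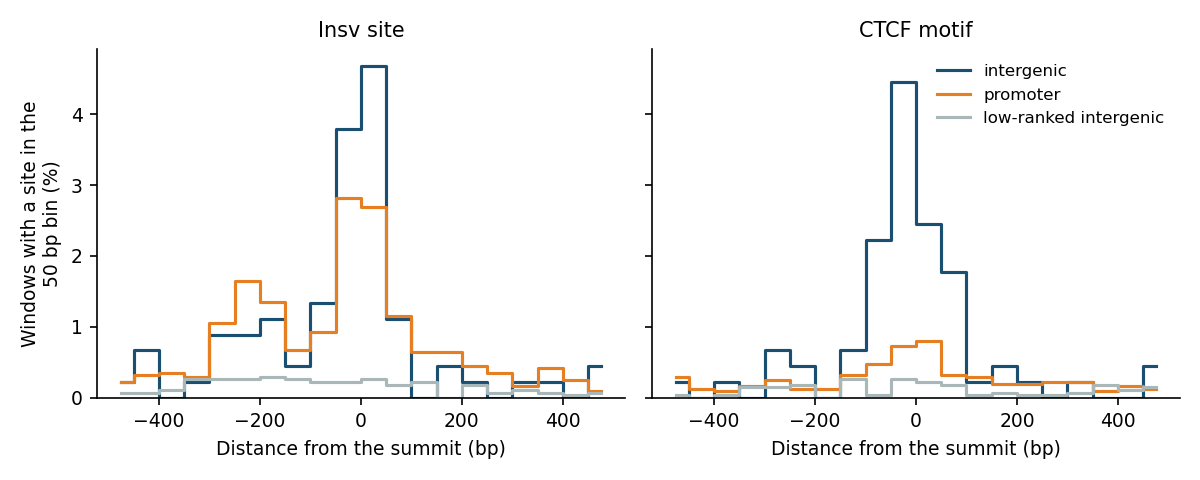
Share of windows (y axis) with the centre of an Insv site (left) or a CTCF motif (right) in each 50 bp bin by distance from the summit (x axis, bp), for intergenic peaks, promoter peaks and low-ranked intergenic regions. The highest intergenic bins lie next to the summit, at 4.68% for Insv sites and 4.45% for CTCF motifs.

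The 449 peaks fell at 401 separate loci in 344 gaps between genes. A single peak lay in 269 gaps, and 75 held at least 2, of which 41 held peaks that did not overlap, 112 peaks in all. The median gap was 6280 bp long, from 92 to 245765 bp. The nearest TSS was a median of 1960 bp away (quartiles 1069 and 4849, longest 51431), and 108 peaks lay beyond 5000 bp and 43 beyond 10000 bp. The summit lay upstream of the gene with the nearest TSS at 279 peaks (62.1%). A summit between genes lies upstream of any gene that begins at its gap. The upstream share was not compared with that of low-ranked regions. Counted by side of each peak, so that a gene beside several peaks counts again, 667 flanks were protein-coding and 214 noncoding RNA genes. The rest were 11 flanks by tRNA genes, 5 by pseudogenes and 1 by an snRNA gene. A gene that was not protein-coding flanked 191 peaks on at least 1 side and 40 on both. Just inside the limit of 500 bp, the nearest TSS was that of CG7627 at 504 bp, lz at 505 and tej at 509, and just outside lay nw at 497 and sgl at 494. In all, 1553 of the 2002 summits outside gene bodies lay within the limit.

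Intergenic peaks lay nearer to start sites than low-ranked regions did. A TSS was within 2000 bp of 50.6% of intergenic peaks and of 34.5% of low-ranked intergenic regions (odds ratio 1.94, 95% interval 1.59 to 2.38, adjusted exact p = 6.92e-10), and the replicate lists gave 49.9% ± 1.75 and 31.7% ± 1.38 (SD, n = 3). Medians were 1960 and 3167 bp.

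The orientation of the flanking genes was close to that at low-ranked regions, and no orientation passed the test. A gap was called diverging when both genes begin at it, converging when both end at it, and tandem otherwise. Diverging gaps held 26.5% of intergenic peaks and 26.2% of low-ranked regions (odds ratio 1.01, 95% interval 0.808 to 1.27), tandem gaps 47.9% and 51.4% (odds ratio 0.87, 95% interval 0.712 to 1.06) and converging gaps 25.6% and 22.4% (odds ratio 1.2, 95% interval 0.949 to 1.51). The adjusted exact p-values were 0.932, 0.339 and 0.284. With summits more than 1000 bp from a TSS, converging gaps passed, at 30.8% against 24.1% (odds ratio 1.4, adjusted exact p = 0.0216), and with a limit of 250 bp the direction turned, at 18.2% against 20.8% (odds ratio 0.85, adjusted exact p = 0.248). Per 100 kb of sequence that could hold such a summit, diverging gaps had 1.61 peaks, tandem gaps 1.17 and converging gaps 1.23. Peaks with an Insv site lay in 5 diverging, 15 tandem and 14 converging gaps, and peaks with a CTCF motif in 8, 14 and 7.

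**Figure D5:**
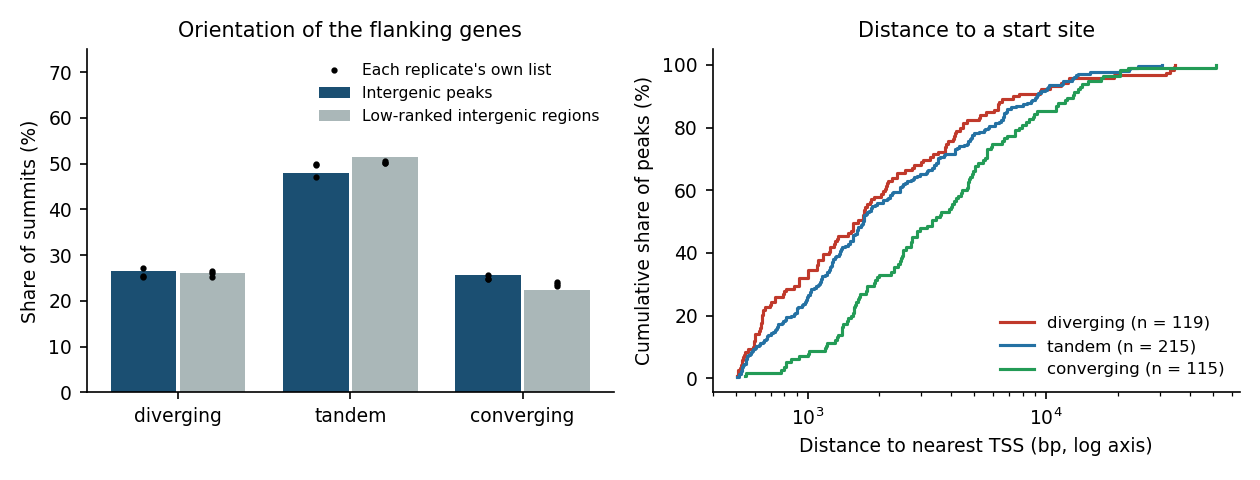
Left, share of summits (%) in diverging, tandem and converging gaps for intergenic peaks and low-ranked intergenic regions, with points for the list of each replicate. Right, cumulative share of intergenic peaks (%) against the distance to the nearest TSS (bp, log axis) for each orientation; medians were 1629, 1711 and 3341 bp, and a converging gap has no gene start at its edges.

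The density of peaks on the large chromosome arms lay between 1.02 per 100 kb of such sequence on 2R and 1.47 on 3R. The small chromosome 4 held 8 peaks, or 4.75 per 100 kb, on 169 kb. The strongest of these had rank 397 and lay between mir-9385 and CR43437, 1 of 3 peaks in a gap whose nearest coding genes are dati and lgs. Others lay between Asator and the homeobox gene zfh2 (rank 745), and beside toy, an eye gene of the Pax6 type (rank 1143), RpS3A (rank 1161), and Sox102F with the forkhead gene fd102C (ranks 1796 and 3698).

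Some gaps held several peaks. The gap on 3L from 14950704 to 14969343 before Tom, whose other coding neighbour is BobA, held 6 peaks at 5 loci with ranks from 1076 to 4156, none with an Insv, Elba or CTCF motif. Tom, BobA and Brd belong to the Bearded family, whose small proteins act in Notch signalling. The percentiles of the strongest of the 6 were 93.91, 96.1 and 96.89 in replicates 1, 2 and 3, and those of the peak of rank 3490 were 67.94, 85.47 and 93.45. Replicate 1 was the lowest for both.

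The gap between NijA, a ninjurin gene, and CG43245 also held 6 peaks, over 32575 bp, with ranks from 1568 to 4599, and 2 of them held the GAGA motif. Jhbp1 and CG14662 shared 5 peaks with a best rank of 132, and Teh1 and CG46467 shared 4 with a best rank of 155, 1 with an Insv site. Gaps with 4 peaks also lay between CG18586 and CG13287, between Hacd1 and Rh5, a rhodopsin gene, and between CG13321 and Psc, a Polycomb group gene. The remaining gaps of the first 10 held 3 peaks each, those of Tollo with Best4, of CG16898 with CG46443 and of dati with lgs.

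Genes of embryonic patterning and of the nervous system were among the neighbours of these peaks, and most of their lists border longer stretches than the median gene. Of the 7859 protein-coding genes that border any stretch more than 500 bp from a TSS, 599 (7.62%) were the nearest coding gene on a side of an intergenic peak. That share grew with the length of the bordering stretches, from 1.61% of genes with up to 1 kb to 8.88% at 1 to 5 kb, 12.4% at 5 to 20 kb, 19.9% at 20 to 50 kb and 24.8% beyond. The median stretch was 1.29 kb over all these genes and 8.88 kb over the 599. Counts for lists are descriptions without a test, since neighbours share peaks and the lists were chosen with earlier results of these data known.

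Of the 8 Hox genes, which assign identity along the body axis, 7 flanked an intergenic peak, with a median stretch of 11.8 kb. After Antp and Scr came abd-A (rank 997, percentiles 96.6, 96.63 and 96.38), Dfd (rank 2228), Abd-B (rank 3750, 1325 bp upstream of the gene) and Ubx (rank 4065, 83.69, 88.76 and 82.95). The remaining member with a peak was pb (rank 4497). All lie in 2 clusters, and the peaks in the Antennapedia complex are shared with neighbours such as ftz.

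Segmentation genes flanked a peak in 10 of 30 cases (median stretch 24.8 kb). They were led by ftz, then bcd, the anterior determinant (rank 681, 2005 bp upstream of its gene), nub (rank 717, with an Insv site), ems (rank 1244, 3 peaks), kni (rank 1577) and slp1 (rank 2345). Other homeobox genes did so in 18 of 55 cases (17.0 kb). They were led by Lim1 (rank 211, 34879 bp away), C15 (rank 579) and repo, which specifies glia (rank 730, with an Insv site). After them came Optix (rank 758), ara (rank 960) and caup (rank 960). The summit of rank 758, with a CTCF motif, lay 16893 bp from Optix and 635 bp from CG14762. Genes of the T-box, forkhead and GATA classes did so in 11 of 25 cases (10.7 kb), led by croc and foxo (rank 420, 5 peaks), then H15 (rank 1158), fd102C, CHES-1-like (rank 2173, with a CTCF motif) and slp1.

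Among proneural and neural bHLH genes, 8 of 17 flanked a peak with a median stretch of 4.21 kb, and 6 of these 8 belong to the Enhancer of split complex, where neighbours share peaks. E(spl)m3-HLH led with rank 85, followed by amos (rank 938, with a Zelda motif), E(spl)m8-HLH (rank 1097), E(spl)m7-HLH (rank 2329, with an Insv site), E(spl)m5-HLH (rank 3466) and E(spl)mgamma-HLH (rank 4131). Of the 8 Bearded family genes 5 did so (4.57 kb), namely E(spl)m4-BFM, Brd, Tom, BobA and E(spl)m6-BFM (rank 2797). Other genes of the Notch pathway did so in 5 of 16 cases (0.931 kb, shorter than the median over all genes). These were Su(H), the DNA-binding partner of Notch (rank 507), dx (rank 868), gro, a corepressor (rank 1097), fng (rank 1611, 7199 bp away, with an Insv site) and Nedd4 (rank 3321). The Nedd4 peak stood at percentile 45.45 in replicate 1 and at 91.45 and 89.77 in replicates 2 and 3.

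Neuroblast genes flanked a peak in 6 of 16 cases (27.3 kb). Of these, D, a Sox gene, had 5 peaks, the first of rank 249, 43746 bp from the gene, with percentiles of 99.45, 99.06 and 99.09. The gene pros, which ends neuroblast identity in daughter cells, had 2 peaks between the noncoding RNA genes cherub and CR31386, the first of rank 313 with an Insv site (98.83, 98.89 and 98.98) and the second of rank 1622 with a CTCF motif (92.97, 93.51 and 94.69). Both lie far from the gene, whose near edge is 67138 bp from the first. The others were nub, chinmo (rank 976), sna (rank 1023) and SoxN (rank 1103).

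Signalling ligands flanked a peak in 5 of 22 cases (22.7%, 23.2 kb), near the 19.9% of all genes with 20 to 50 kb. The other lists with a median in that class, segmentation and neuroblast genes, had 33.3% and 37.5%. The ligands were pyr and ths, both FGF genes sharing 1 peak (rank 896), vn (rank 1396), and wg and Wnt4, which share peaks (rank 3371). Of lists without a role in patterning, 1 had a share above the 7.62% of all genes and 2 had a share below it. Ribosomal protein genes flanked a peak in 7 of 51 cases (13.7%), although their median stretch falls in the class of up to 1 kb, where 1.61% of all genes did so. Chemoreceptor genes did so in 6 of 115 cases (5.22%) and cuticle protein genes in 2 of 107 (1.87%). The median stretches of the 3 lists were 0.559, 4.41 and 1.43 kb. In the class of 1 to 5 kb, which holds the last 2 medians, 8.88% of all genes flanked a peak. The first of each were RpLP2 (rank 536, with an Insv site), Or30a (rank 492) and Cpr76Ba (rank 1784). Of the insulator and BEN-domain genes, 7 border such a stretch, with a median of 0.034 kb, and 0 of these flanked an intergenic peak.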

How the data were processed

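ChIP-seq of Insv fused to GFP was done in 3 biological replicates of fly embryos, 1 group. Per the file headers, the authors made a relaxed list of regions for each replicate and for the pooled replicates from alignments and a control alignment, and an IDR list from those. The deposited signal score is the peak caller's, of unstated scale, and served only as a rank within a list. The deposited −log10 q-values served only to count regions below 0.05. Another deposited column gives the summit as an offset in bp. Which aligner, peak caller and IDR threshold were used, and the depth, is not given in the sources used here. The labels call the replicates biological. The lists on dm3 were not used.

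Coordinates are 1-based on dm6. Genes came from Ensembl release 115 (BDGP 6.54), without transposable elements, on the 5 large arms and chromosome 4, and sequence from the RefSeq genome of the same build. The members and lists of motifs and genes were chosen with earlier results of these data known. Two-sided Fisher's exact tests compared shares, and p-values were adjusted by Benjamini-Hochberg over 11 single comparisons, 22 motifs or all 8-base sequences in at least 10 windows, threshold 0.05, and 95% Wald intervals (0.5 added to each cell where a cell was 0). Regions do not count as replicates. Except for the shares held by replicates, each comparison was therefore repeated in the 4753 strongest regions of each replicate, with low-ranked regions from its own list. The shares held by replicates rest on counts of regions alone. Intervals cover counting error only. The methods were tested on simulated data.

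The genes named are the nearest coding genes of the 20 strongest gaps, those of the 10 gaps with the most peaks, and up to 6 flanking members of each list. The windows with CTCF and Su(Hw) motifs and the chromosome 4 genes were chosen after their values were seen, as were the intron comparison and the tests of single replicates. Alternatives were other motif windows, TSS limits, gene sets, backgrounds and overlap rules, 1 summit per locus, the stronger 50% of peaks, and leaving out each replicate. Tools were scipy 1.17.1, pandas 2.3.3, numpy 2.4.6 and matplotlib 3.10.9 under Python 3.11.15. Windows on arm 2R are not printed.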

Additional observations from a re-analysis of the deposited data

How the results depend on the processing

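The 14 results of the design were recomputed under 141 combinations with an alternative, and 122 counted as kept. A single comparison was kept when its direction and its side of the threshold stayed the same. Numbers of motifs or 8-base sequences called were kept when they stayed within a set fold of the main number, whatever their members. These were 11 of 11 combinations for motifs against promoter peaks, 12 of 12 against low-ranked regions and 8 of 9 for 8-base sequences. The Insv site against low-ranked regions, the TSS within 2000 bp, and the strongest 10% with against without a site kept their call under every alternative run. The Insv site against promoter peaks passed with a 25 bp window (odds ratio 1.93), with 1 summit per locus (1.66) and with a TSS limit of 250 bp (1.63). Against intron peaks it turned with the 25 bp window (1.05). The strongest 10% turned against promoter peaks beyond 1000 bp (0.978) and with protein-coding genes only (0.925), and against intron peaks beyond 1000 bp (1.16). The share held by all replicates turned with 1 summit per locus (1.01). Diverging gaps turned beyond 1000 bp (0.886) and in the stronger 50% of peaks (0.853), tandem gaps in the stronger 50% (1.03), and converging gaps passed beyond 1000 bp (1.4) and turned at 250 bp (0.85). None of these that turned passed in either setting, and the cause was not tested. The count of 8-base sequences fell from 37 to 22 beyond 1000 bp, where fewer peaks were tested.

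Leaving out 1 replicate at a time, by keeping peaks held by both others, gave odds ratios of 0.967 to 1.11 for the strongest 10% against promoter peaks, turned without replicate 1, and 0.923 to 1.08 for diverging gaps, turned without replicate 1 and without replicate 2. For the share held, here by both remaining replicates, they were 0.713 to 1.2. Without replicate 3 that share passed, at 72.4% of intergenic against 78.6% of promoter peaks (odds ratio 0.713, adjusted exact p = 0.00969), and without replicate 1 it turned. No paired analysis of sample groups was possible because all samples form 1 group, and the values of region kinds within each replicate list are given beside several results.

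For single motifs, 166 of 184 combinations kept the call and none turned. The CTCF and Su(Hw) calls against promoter and low-ranked regions held throughout. BEAF-32 against low-ranked regions lost its call in 9 settings, the TATA box against promoter peaks in 6, and Zelda in both comparisons with a 25 bp window. Leaving out a replicate does not remove its reads from the IDR list. Depth is unknown and sets how many weak peaks could be seen.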
